A study of Saccharomyces cerevisiae with 16 samples.

Results

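The comparison described here set upf1Δ cells of Saccharomyces cerevisiae (budding yeast) against wild-type cells, both kept in glucose. It rests on 4 of the 16 RNA libraries of the study, 2 per genotype, and on every feature of the deposited table that is not a spike-in, which is 11997 of 12089. That rule for features uses no measured value. The gene lists and many of the genes named below were chosen with results of these data known. The study sequenced strand-specific total RNA from upf1Δ, xrn1Δ and wild-type cells in glucose and after a shift to glycerol and ethanol, and from wild-type cells with the translation inhibitor cycloheximide. The tested cells were strain YAM202, MATa his3Δ1 leu2Δ0 met15Δ0 ura3Δ0 with upf1Δ::kanMX4, labelled as controls (no starvation). Their reference was strain YAM1, which has the same mating type and the same 4 auxotrophic deletions but an intact UPF1 gene. All were haploid, were grown to mid-log phase in synthetic glucose medium (CSM) and stayed in glucose for another 16 min. The wild-type cells were also mock treated, which means that they received the solvent DMSO, while the labels name no solvent for the mutant. The 4 libraries of starved cells used further on, upf1Δ and wild type, came from the same strains after 16 min without glucose. The series' design text calls the 2 libraries of a group biological replicates, and the tests measure the spread between those libraries. Each genotype was 1 strain, so that any other difference between YAM202 and YAM1 cannot be told apart from the deletion.

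Upf1 is a helicase that works with Upf2 and Upf3 in nonsense-mediated mRNA decay (NMD), a pathway that needs translation. A ribosome that terminates early, at a stop codon in a broken reading frame, in a retained intron or in a short upstream open reading frame (uORF), leaves a long stretch of RNA behind it, and Upf1 then recruits decapping enzymes so that Xrn1 degrades the RNA from its 5′ end. Many long noncoding RNAs (lncRNAs) of yeast reach ribosomes in the cytoplasm and are degraded in the same way. XUTs are lncRNAs defined by their accumulation without Xrn1, SUTs are stable unannotated transcripts, CUTs are cryptic transcripts degraded mainly by the nuclear exosome, and NUTs are transcripts that extend when the termination factor Nrd1 is missing.

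Values are the authors' normalised densities, in reads per nucleotide of the feature. The spike-in RNAs summed to 305 to 311 in the upf1 libraries and to 307 to 313 in the wild-type libraries. Levels thus behave as set against the spike-ins, which were added to a given amount of total RNA, and not per cell. How the libraries were scaled is not given in the sources used here. Steps between low values gave a depth of 18.6 M and 16.7 M reads on single-exon open reading frames in the upf1 libraries, against 17.8 M and 16.7 M in the wild-type libraries. At this depth 0.05 reads per nucleotide stands for 131 to 161 reads per kb. Changes are differences of log2(value + 0.00364), fitted with limma over all 16 libraries, and a feature rose or fell where the Benjamini-Hochberg adjusted p over the 11606 features tested was under 0.05. The first upf1 library stood above the second for most mRNAs, with a median ratio of 1.22 over 5313 mRNAs, against 0.960 between the wild-type libraries. Many results that turn on this gap are given with and without each upf1 library.

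The deletion was visible in its own gene. NAM7 (YMR080C), the name under which UPF1 is listed, lay at 0.0141 and 0.0152 reads per nucleotide in upf1 cells, against 0.616 and 0.582 in wild type. Markers of mating type a were present in both genotypes, with MFA1 at 1.19 and 0.969 in upf1 cells and at 2.58 and 2.50 in wild type. The alpha pheromone genes MF(ALPHA)1 and MF(ALPHA)2 averaged 0.00438 and 0.00369 in upf1 cells and 0.00214 and 0.00199 in wild type. Not all genes specific to mating type alpha were this low. The 5 listed had a median of 0.071 and 0.051 in the upf1 libraries and of 0.037 and 0.047 in the wild-type libraries. Of these SAG1 rose, with values given below.

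3 sets of sequence help to read the results, and all were read from the R64 genome of RefSeq. The first set shows the ATG nearest to the annotated start codon, in capitals, on the coding strand within the leader region of 6 genes whose mRNAs are described below. STN1, EST1 and CTF13 are NMD targets that rose, DAL7 and COS12 are among the largest rises, and PPR1 is an NMD target that did not pass the test. Where the RNA itself begins was not measured here.
STN1 (chrIV:610419-610448, plus strand): cttttaataATGggttggagccatggataa
EST1 (chrXII:609519-609548, minus strand): aaatgacacATGccaccatagataatggat
CTF13 (chrXIII:455806-455835, plus strand): cagaagtccATGtcgcttgatgccttcttt
DAL7 (chrIX:414692-414721, minus strand): acttagagtATGtgtcataggcacggtaaa
COS12 (chrVII:2753-2782, plus strand): tgcaaaataATGtctcctgaactacatcgc
PPR1 (chrXII:174973-175002, minus strand): acgaagatgATGattaaatcatgaagcaga
In STN1 this ATG lies 13 nt before the start codon and opens a frame of 6 codons that ends beyond it, and in CTF13 it lies 10 nt before with 10 codons and in COS12 28 nt before with 15. In EST1 it lies 15 nt before and ends after 3 codons, and in DAL7 33 nt before and after 9 codons. In PPR1, which did not pass, it lies 11 nt before and opens a frame of 4 codons. That frame also ends beyond the first base of the start codon, as in STN1 and CTF13.

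The second set shows the first in-frame stop, in capitals, of 4 reading frames that RefSeq annotates as pseudogenes. FLO8, the flocculation activator, is known for its nonsense mutation in the reference strain.
CCW22 (chrIV:721266-721295, minus strand): gacgttatcactTAAtacaccacctggtgt
YOL153C (chrXV:38160-38189, minus strand): cacaaatatttcTAAgagacttttcctctt
FLO8 (chrV:377174-377203, minus strand): ttgtatgaatggTAGcaaatattctgggac
CRS5 (chrXV:389225-389254, plus strand): atatgtgactgtTAAggcgaatgttgtaag
The stop is codon 67 in CCW22 (48.2% of the length), codon 131 in YOL153C (22.3%), codon 142 in FLO8 (17.6%) and codon 9 in CRS5 (11.4%). The third set shows the first stop, in capitals, met in frame when the first intron is not removed.
REC107 (chrX:469169-469198, minus strand): acaactgtagtaTAGgaaacgtgaaaacct
RPL28 (chrVII:311009-311038, plus strand): gtctcaggtatgTAGttccatttggaagag
RPL22B (chrVI:64897-64926, minus strand): ccaaacgtacgtTAAttttcgttcctatgt
RPL33B (chrXV:779361-779390, minus strand): agacgtatgttaTGAaattactatatgatg
In RPL28, RPL22B and RPL33B the stop follows 5, 6 and 8 nt of intron, and in REC107 77 of the 80 nt of the intron.

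Without Upf1, XUTs, SUTs and NUTs rose more often than mRNAs, while the share of CUTs that rose (19.4%) was close to that of mRNAs (20.7%). Of all 11606 features tested 3717 rose (32.0%) and 1156 fell (9.96%). Among the features that passed, the fitted change was at least 2-fold for 2365 rises (20.4% of all) and 34 falls (0.293%). The upf1 libraries lay above both wild-type libraries for 5306 features (45.7%) and below both for 2610 (22.5%). Among 1624 XUTs there were 1011 rises and 3 falls (median log2 change 1.08), and among 830 SUTs 565 rises and 1 fall (median 1.13). NUTs followed at a distance, with 619 of 1434 higher, 13 lower and a median of 0.54. Of 904 CUTs 175 rose and 15 fell, with a median of 0.20. The 5817 mRNAs split almost evenly, with 1206 rises, 1073 falls and a median of -0.08, but 487 of the rises and 10 of the falls reached 2-fold.

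**Figure D1:**
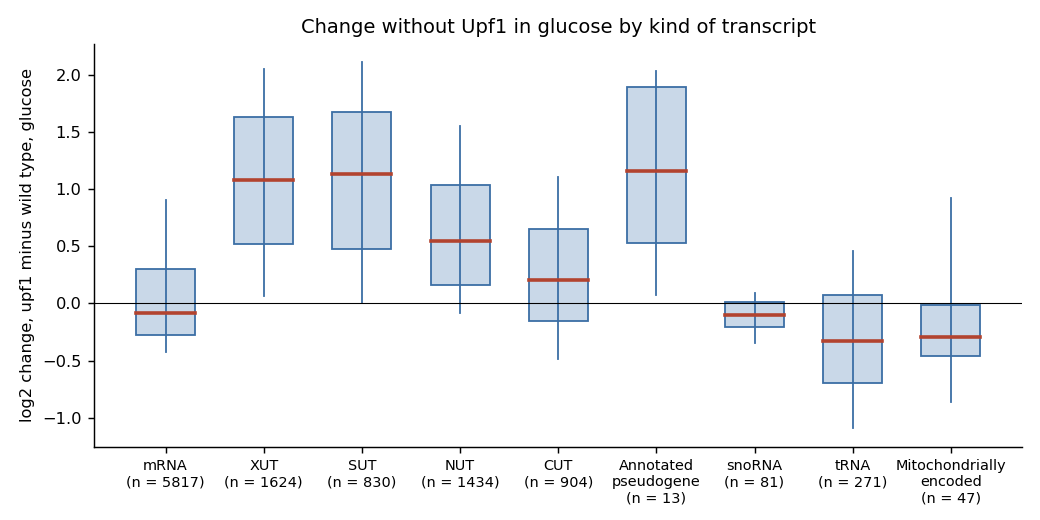
Log2 change in upf1 cells against wild type in glucose (y axis) for each kind of transcript, with the number tested. The red line is the median, the box spans the 25th to 75th percentile and the thin line the 10th to 90th. XUTs and SUTs have medians of 1.08 and 1.13, and mRNAs one of -0.08.

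The median XUT lay at 0.0292 and 0.0259 reads per nucleotide in the upf1 libraries, against 0.0115 and 0.0110 in the wild-type libraries. For SUTs the medians were 0.0438 and 0.0368 in upf1 cells and 0.0161 and 0.0158 in wild type, and for CUTs 0.0149 and 0.0132 in upf1 cells and 0.0109 and 0.0103 in wild type. In these 3 classes the upf1 medians lay above both wild-type medians. Many XUTs lie near the floor of the measurement, and the share that passed followed the level: 40.6% of the lowest tertile rose, 66.3% of the middle tertile and 79.9% of the highest. In mRNAs the order was the opposite, with 29.1%, 22.2% and 10.8%. The class medians of lncRNAs therefore depend on the pseudocount, and the XUT median was 0.39 with one 10 times larger and 1.40 with one 10 times smaller.

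Features of snoRNAs, tRNAs and mitochondria rose seldom. Of 81 snoRNAs, which guide the modification of ribosomal RNA, 0 rose and 2 fell in limma's test (median -0.10). Of 271 tRNA features 4 rose and 16 fell, and the 47 features encoded in mitochondria had 0 rises and 10 falls. The 561 tested open reading frames that are missing from the RefSeq gene list moved otherwise. Among them 126 rose (22.5%) and 23 fell, with a median of 0.31. Counting both called and other features, 42 were listed at 0 in both wild-type libraries and above 0 in both upf1 libraries, 11 of them XUTs and 8 mRNAs, while 12 showed the reverse.

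The number of falls depended on the scaling and on single libraries more than the number of rises. Left without the first upf1 library, 2983 features rose and 2011 fell, and without the second, 3667 rose and 460 fell. Without the first or the second wild-type library the falls numbered 696 and 473. Of the calls 76.3% were rises at the deposited scale, 58.5% with the protein-coding genes as the scale (3950 up, 2798 down) and 95.9% with the snoRNAs as the scale (3245 up, 137 down). For mRNAs alone the splits were 1206 up and 1073 down, 1338 and 2623, and 932 and 111. The snoRNA factors of the 2 wild-type libraries themselves differed, at 1.21 and 1.02, against 1.04 and 1.05 in upf1 cells. Each fall below is to be read with these counts.

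Among the NMD factors, the other Upf mRNAs did not pass the test with all libraries in. NMD2, which encodes Upf2, lay at 0.174 and 0.148 reads per nucleotide in upf1 cells and at 0.141 and 0.149 in wild type (log2 change 0.14 ± 0.12, SE). UPF3 lay at 0.110 and 0.0668 in upf1 cells and at 0.0924 and 0.111 in wild type (-0.23 ± 0.22), while without the first upf1 library UPF3 passed as a fall (-0.58, limma adjusted p = 0.0449) and without the second its value was 0.12. NMD4, whose product binds the Upf1 helicase domain, was found at 0.618 and 0.606 in upf1 cells, against 0.119 and 0.127 in wild type. The groups stood well apart and NMD4 rose by 2.29 ± 0.10 (limma adjusted p = 1.69e-08). EBS1, a further Upf1 partner, rose by 0.62 ± 0.13. HRR25, a casein kinase gene, fell by 0.46 (SE 0.14), a call that was lost without the second library of either genotype and when scaled to snoRNAs.

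Of 17 mRNAs described elsewhere as NMD targets, 14 rose and 0 fell, and their median change of 0.89 (log2) stands against 0.18 over all features tested and -0.08 over mRNAs. The largest rises were in REC107, an early meiotic gene, in the telomere gene STN1 and in NIT1, described below. REC107 lay at 0.553 and 0.469 reads per nucleotide in upf1 cells and at 0.0875 and 0.112 in wild type (2.32 ± 0.15, adjusted p = 1.78e-07). STN1, a subunit of the complex that caps telomeres, lay at 0.470 and 0.392 in upf1 cells and at 0.0857 and 0.0834 in wild type (2.29 ± 0.12, adjusted p = 4.36e-08). Both genes thus stood about as far above wild type as any target in the list, and in neither did the groups overlap.

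The capping partner TEN1 rose by 1.82 ± 0.16. The telomerase genes rose together: EST1 by 1.17 ± 0.15, EST2, the catalytic subunit, by 1.56 ± 0.16, and EST3 by 1.58 ± 0.12. EST3 is read through a programmed frameshift, but the other mRNAs of that kind, ABP140 and OAZ1, did not pass (-0.26 ± 0.15 and -0.07 ± 0.11). Among 15 genes of telomere maintenance 8 rose and 4 fell. The risers included RIF2 (1.09 ± 0.18), which limits telomere length, and both Ku subunit genes (YKU70 0.46 ± 0.12, YKU80 0.49 ± 0.15), while SIR2, RIF1, RAP1 and SIR4 fell by 0.81, 0.76, 0.61 and 0.48. Scaled to snoRNAs 6 rose and 2 fell.

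CPA1, the arginine-repressed carbamoyl phosphate synthase gene whose uORF peptide stalls ribosomes, lay at 1.19 in both upf1 libraries, against 0.473 and 0.512 in wild type (1.27 ± 0.10, adjusted p = 8.00e-07). ALR1, a magnesium transporter gene, rose by 0.68 ± 0.11, CTF13, a kinetochore gene, by 0.63 ± 0.14, REV7, a DNA polymerase subunit gene, by 0.89 ± 0.15 and SDT1, a nucleotidase gene, by 0.51 ± 0.11. NIT1, a nitrilase gene whose frame is interrupted in the reference strain, rose by 2.14 ± 0.13. RPL28, a ribosomal protein gene with an intron, lay at 21.9 and 22.1 in upf1 cells and at 16.9 and 17.4 in wild type, a small but non-overlapping difference (0.36 ± 0.07, adjusted p = 0.00182). FZF1, a sulfite-resistance activator gene, rose by 0.42 ± 0.14, a call lost without either wild-type library, without the second upf1 library and under both scalings. PPR1, the pyrimidine pathway activator, lay at 0.114 and 0.0874 in upf1 cells and at 0.0783 and 0.0878 in wild type, and the groups overlapped (0.26 ± 0.17). SPT10, a histone gene activator, and UBP7, a ubiquitin protease gene, did not pass either (0.21 ± 0.14 and -0.18 ± 0.18). Without the second upf1 library SPT10 passed (0.41), and UBP7 passed without the first (-0.47) and stood at 0.12 without the second.

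**Figure D2:**
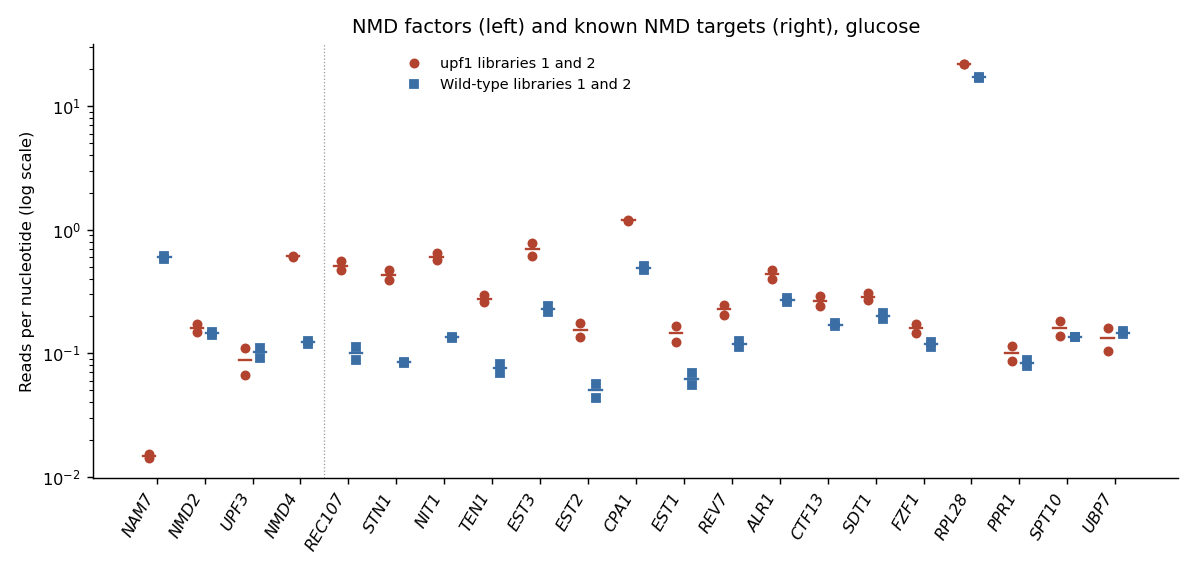
Reads per nucleotide (log axis) in the 2 upf1 libraries (red circles) and the 2 wild-type libraries (blue squares) in glucose, with short bars at the means. NMD factor genes stand left of the dotted line and 17 known NMD targets right of it, ordered by their change from REC107 (2.32) to UBP7 (-0.18).

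mRNAs with described uORFs rose about as often as mRNAs in general (20.7%). Of 16 mRNAs with described uORFs, 4 rose and 2 fell, with a median of 0.07. With 1 library left out the median lay between -0.0996 and 0.199, and 1 to 4 rose and 0 to 3 fell, the fewest rises being without the first wild-type library. CPA1 led this list, and CBS1, a translational activator of mitochondrial cytochrome b, rose by 0.58 ± 0.16. GCN4, the amino acid starvation activator with well-studied uORFs, lay at a mean of 5.26 in upf1 cells and 4.44 in wild type (0.24 ± 0.08, adjusted p = 0.0245), and the fourth riser was HOL1 (0.34 ± 0.12), a polyamine transporter gene. YAP1 and CLN3, with values of 0.08 ± 0.13 and 0.06 ± 0.11, did not pass. TIF4631, which encodes eIF4G, and SCH9, a kinase gene, fell by 0.43 and 0.40, and the call of TIF4631 was lost without the second library of either genotype.

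Reading frames that are broken in the reference strain rose in most cases. Of 18 such frames tested, 13 rose and 0 fell, with a median of 1.04 (0.63 with a pseudocount 10 times larger and 1.76 with one 10 times smaller). Of the 18 features that RefSeq annotates as pseudogenes 13 were high enough to be tested, and 8 of these rose. CCW22, which resembles cell wall protein genes, was by far the most abundant, with 13.2 and 11.3 reads per nucleotide in upf1 cells and 3.23 and 3.37 in wild type (1.89 ± 0.11, adjusted p = 6.72e-08). YOL153C, a metallopeptidase-like frame, lay at 0.318 and 0.234 in upf1 cells and at 0.0346 and 0.0375 in wild type (2.80 ± 0.18, adjusted p = 1.27e-07). In both the upf1 libraries stood far above the wild-type libraries.

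SDL1, a serine dehydratase pseudogene, and its neighbour YIL168W rose by 1.90 ± 0.20 and 2.23 ± 0.17, YIR043C by 2.06 ± 0.29, AAD6 by 1.78 ± 0.14 and SDC25, a Ras exchange factor relic, by 1.75 ± 0.16. FLO8 lay at 0.210 and 0.151 in upf1 cells and at 0.109 and 0.115 in wild type, a smaller rise (0.66 ± 0.15, adjusted p = 0.00387). CRS5, a metallothionein-like frame with a stop at codon 9, lay at 0.224 and 0.226 in upf1 cells and at 0.187 and 0.206 in wild type and did not pass (0.19 ± 0.18). HXT12, FDH2, YPL276W and YIL171W, all below the pseudocount in each of these 4 libraries, did not pass, and YAR061W, YCL075W, YCL074W, YIL175W and YIL174W were too low to be tested. The open frames of AQY2, an aquaporin gene split by mutation, and of YLL053C, its other part, rose by 1.03 ± 0.16 and 0.92 ± 0.19.

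Genes with introns moved differently inside and outside the ribosomal protein genes. Nearly every first intron of yeast holds an in-frame stop, 167 of 178 among intron genes other than ribosomal protein genes and all 88 with introns among those. Of the 178, 47 rose and 15 fell (median 0.08), against 1157 rises and 988 falls among 5551 mRNAs with no intron. Of the 88, 2 rose and 70 fell (median -0.28). Whether reads inside introns entered the deposited values is not given in the sources used here. Among 12 meiotic genes with introns, which vegetative cells splice poorly, 6 rose and 0 fell, with a median of 0.75 (0.278 with the larger pseudocount). Besides REC107 these were MEI4 (0.0404 and 0.0406 in upf1 cells, 0.0130 and 0.0105 in wild type, 1.52 ± 0.17), HFM1, a meiotic DNA helicase gene (1.32 ± 0.17), SPO1 (1.13 ± 0.18), SPO22 (0.95 ± 0.21) and REC102 (0.92 ± 0.31).

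RPL22B stood apart among the genes of the large subunit. It lay at 1.87 and 1.85 reads per nucleotide in upf1 cells, against 0.833 and 0.874 in wild type (1.12 ± 0.11, adjusted p = 4.88e-06). RPL33B, whose intron stop is just as early, lay at 2.96 and 2.66 in upf1 cells and at 3.71 and 3.98 in wild type and fell by 0.45 (SE 0.08). With an early intron stop in both, RPL22B thus rose and RPL33B fell. A fall was common to most genes of the large subunit (61 of 76), and scaled to snoRNAs 0 of them fell.

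The largest rises among mRNAs were mostly in genes of low level in wild type. ZPS1, a zinc-regulated cell wall gene, lay at 3.29 and 0.287 reads per nucleotide in upf1 cells and at 0.0543 and 0.0493 in wild type. Its upf1 libraries differed 11.5-fold, and its rise of 4.14 ± 1.12 (adjusted p = 0.0100) was lost without the first upf1 library (2.39, adjusted p = 0.116). AAD15, at 0.0778 and 0.0530 in upf1 cells, was listed at 0 in both wild-type libraries. YNL018C, uncharacterised, rose by 3.59 ± 0.34.

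DAL7, a malate synthase of allantoin breakdown, lay at 0.883 and 0.702 in upf1 cells and at 0.0824 and 0.0955 in wild type (3.10 ± 0.14, adjusted p = 1.69e-08). COS12, a subtelomeric gene for a membrane protein involved in sorting to the vacuole, lay at 0.221 and 0.185 in upf1 cells and at 0.0178 and 0.0204 in wild type (3.18 ± 0.17, adjusted p = 5.08e-08). YEL073C, uncharacterised, stood higher, at 2.19 and 1.90 in upf1 cells and at 0.272 and 0.267 in wild type (2.90 ± 0.14). In all 3 the replicates lay close together and the groups far apart.

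The remaining leaders were PAU2 (3.09 ± 0.32), YOR072W (3.01 ± 0.41), YGL258W-A (3.003 ± 0.33), the maltose permease genes MAL11 (2.996 ± 0.16) and MAL31 (2.82 ± 0.16), and the allantoicase gene DAL2 (2.85 ± 0.14). The adjacent uncharacterised genes YOL163W and YOL162W rose by 2.94 ± 0.19 and 2.83 ± 0.19, and the small gene YCR095W-A by 2.86 ± 0.17. Risers often stood next to each other: of the 487 mRNAs that rose at least 2-fold, 39.4% had such a riser as a neighbour, against 15.1% of all mRNAs.

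**Figure D3:**
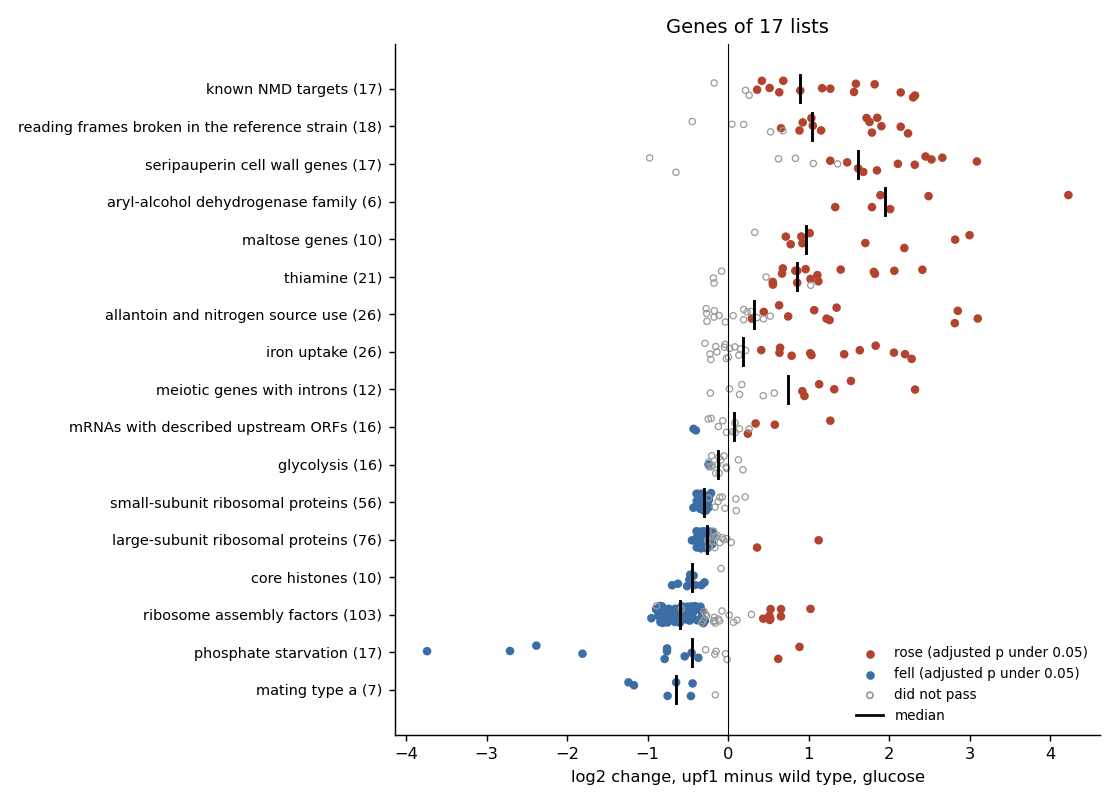
Log2 change in upf1 cells against wild type in glucose (x axis) for the tested genes of 17 lists (number in brackets). Red points rose, blue points fell, open points did not pass and black bars mark medians, such as 0.89 for known NMD targets and -0.59 for ribosome assembly factors. AAD15, PAU10 and PAU11, listed at 0 in both wild-type libraries, are drawn where the pseudocount puts them.

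Gene families at chromosome ends were among the groups that rose. Of 17 seripauperin (PAU) genes tested, which encode cell wall mannoproteins, 11 rose and 0 fell (median 1.61, or 0.781 with a pseudocount 10 times larger). PAU23 lay at 0.367 and 0.300 in upf1 cells and at 0.0558 and 0.0538 in wild type (2.52 ± 0.11), and PAU5 rose by 2.66 ± 0.30. Of 12 COS genes 8 rose and 0 fell (median 0.46), including COS10 (1.70 ± 0.13) and COS7 (1.42 ± 0.10). All 6 aryl-alcohol dehydrogenase (AAD) genes tested rose (median 1.95). AAD4 lay at 0.392 and 0.342 in upf1 cells and at 0.0554 and 0.0700 in wild type (2.49 ± 0.12), and AAD10 rose by 2.01 ± 0.15. Of 10 maltose genes tested 9 rose (median 0.966, or 0.494 with a pseudocount 10 times larger), with the isomaltase gene IMA1 at 2.19 ± 0.16. With 1 library left out the maltose median lay between 0.94 and 1.04. Members of these families are near-identical, so reads may be split between copies and single values are uncertain. The AAD and maltose lists were drawn up after their values were seen.

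Nutrient and metal uptake genes rose in part. Of 21 thiamine genes 16 rose and 0 fell (median 0.86, or 0.55 with a pseudocount 10 times larger). With 1 library left out the thiamine median lay between 0.752 and 1.03. THI22, a putative kinase gene of this pathway, lay at 0.562 and 0.439 in upf1 cells and at 0.0934 and 0.0877 in wild type (2.41 ± 0.14), and THI21 (2.06 ± 0.12) and the transporter gene THI72 (1.82 ± 0.15) followed. The biosynthesis gene THI4 and the main transporter gene THI7 did not pass (-0.18 ± 0.11 and -0.18 ± 0.10).

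Of 26 iron uptake genes 12 rose (46.2%, against 20.7% of mRNAs) and 0 fell. Their median of 0.18 was close to that of all features, but above that of mRNAs (-0.08). Without the first upf1 library 9 rose and 5 fell, and with 1 library left out the median lay between 0.108 and 0.35. The risers were mainly surface reductases and siderophore transporters: FRE3 at 0.244 and 0.173 in upf1 cells and at 0.0366 and 0.0428 in wild type (2.28 ± 0.15), FRE2 (2.19 ± 0.15), the mannoprotein gene FIT3 (2.06 ± 0.14), ARN2 (1.83 ± 0.15) and ARN1 (1.63 ± 0.12). The high-affinity oxidase and permease genes FET3 and FTR1 did not pass (-0.02 ± 0.19 and -0.23 ± 0.16), nor did the activator gene AFT1 (-0.29 ± 0.11). A rise across the whole pathway was thus not seen.

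Of 20 other metal and ion transport genes 10 rose and 1 fell (median 0.40). ZRT1, the high-affinity zinc transporter gene, lay at 8.24 and 3.69 in upf1 cells and at 0.948 and 1.03 in wild type (2.48 ± 0.37, adjusted p = 1.45e-04), and ZAP1, the zinc-responsive activator, rose by 1.31 ± 0.25. As with ZPS1, the first upf1 library was the higher one, 2.23-fold in ZRT1 against a median of 1.22 over mRNAs. The part of that library in these values was not tested beyond leaving it out. Values without it are not given here for ZRT1 and ZAP1. ALR2, a relative of ALR1, rose by 1.82 ± 0.17. Of 26 genes of allantoin and nitrogen source use 11 rose and 0 fell (median 0.33), with the permease gene DAL5 (2.81 ± 0.14), the ammonium permease gene MEP2 (1.34 ± 0.14) and the glutamate dehydrogenase gene GDH2 (1.22 ± 0.12) besides DAL7 and DAL2. The general amino acid permease gene GAP1 and the regulator DAL80 did not pass (0.28 ± 0.15 and 0.06 ± 0.29).

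In synthetic pathways single genes rose and most did not pass. For comparison, 20.7% of all mRNAs rose and 18.45% fell. URA10, the minor orotate phosphoribosyltransferase gene, lay at 0.263 and 0.250 in upf1 cells and at 0.0757 and 0.0723 in wild type (1.75 ± 0.12), and it led a pyrimidine list of 12 with 4 rises and 2 falls. ARG8 rose by 1.01 ± 0.11 among 12 arginine genes (3 up, 1 down), MET1 by 1.17 ± 0.13 among 25 sulfur and methionine genes (5 up, 6 down) and GCV1, a glycine cleavage gene, by 0.99 ± 0.15 among 42 other amino acid genes (4 up, 11 down). Of 35 chaperone and stress genes 3 rose and 8 fell, with SSA3, an inducible Hsp70 gene, at 1.41 ± 0.15 and DDR2 at -0.78 ± 0.15. Of 34 proteasome genes 2 rose, RPN14 (0.81 ± 0.12) and RPN13 (0.60 ± 0.11), and 3 fell. Of 23 ergosterol genes 1 rose and 3 fell, of 16 glycolysis genes 0 rose and 1 fell, of 18 TCA cycle genes 0 rose and 2 fell, and of 17 hexose transporter genes 2 rose and 3 fell. HXT8 rose by 1.54 ± 0.17, and HXT2 fell by 0.82 (SE 0.10). The falls of these lists moved with single libraries: without the first upf1 library 21 of the amino acid, 16 of the chaperone, 16 of the proteasome, 11 of the ergosterol and 6 of the glycolysis genes fell, and without the second 3, 3, 0, 0 and 0. Without either wild-type library 1 of the sulfur and methionine genes rose and 3 fell, and 1 of the chaperone genes rose.

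Genes of the phosphate starvation response had the largest falls. PHO84, the high-affinity phosphate transporter gene, lay at 0.128 and 0.0961 reads per nucleotide in upf1 cells, against 1.34 and 1.74 in wild type (-3.74 ± 0.15, adjusted p = 1.19e-08). SPL2, an inhibitor of low-affinity phosphate uptake, lay at 0.0173 and 0.0157 in upf1 cells and at 0.121 and 0.136 in wild type (-2.71 ± 0.18). PHO89, the sodium-coupled phosphate transporter gene, lay at 0.0340 and 0.0258 in upf1 cells and at 0.166 and 0.174 in wild type (-2.38 ± 0.15). In each of these the upf1 libraries lay far below both wild-type libraries.

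PHM6 fell by 1.81 (SE 0.25), and the polyphosphate polymerase genes VTC1, VTC3 and VTC4 by 0.79, 0.76 and 0.76. Of the 17 genes listed 10 fell and 2 rose, the cyclin gene PHO80 (0.62 ± 0.12) and PHO11 (0.88 ± 0.22), whose reads may be shared with PHO12. The activator gene PHO4 did not pass (-0.17 ± 0.20). Scaled to snoRNAs 7 fell, and without each library in turn 8 to 11 fell.

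Genes specific to mating type a also fell, 6 of 7 with 0 rises (median -0.65). MFA1, one of the a-factor genes, had the values given above (-1.24 ± 0.11, adjusted p = 2.40e-06), and the a-factor exporter gene STE6 lay at 0.655 and 0.493 in upf1 cells and at 0.936 and 0.986 in wild type (-0.75 ± 0.13). ASG7 fell by 1.17 (SE 0.21), while the receptor gene STE2 did not pass (-0.16 ± 0.10). Of 5 genes specific to mating type alpha 1 rose and 0 fell: SAG1, alpha-agglutinin, at 0.445 and 0.310 in upf1 cells and at 0.107 and 0.118 in wild type (1.69 ± 0.16). In bulk RNA, fewer cells that express a gene and less of its RNA per cell cannot be told apart. Scaled to snoRNAs 4 of the 7 mating type a genes fell, and without each library in turn 5 or 6.

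Genes for making ribosomes fell by small amounts. Of 103 genes listed as ribosome assembly factors, 77 fell and 8 rose (median -0.59). That list was drawn up by gene name (UTP, NOP, RRP, MAK, SAS and others) after values were seen, so it holds some genes with other functions. NOP4 lay at 0.0863 and 0.0784 in upf1 cells and at 0.158 and 0.168 in wild type (-0.95 ± 0.12), and SAS10 fell by 0.90 (SE 0.17). The largest rise was in MAK31 (1.02 ± 0.14), a subunit of an N-terminal acetyltransferase known for its part in maintaining the killer virus. Scaled to snoRNAs 32 fell, and without each library in turn 57 to 78.

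Of 56 ribosomal protein genes of the small subunit 47 fell and 0 rose (median -0.31), and of 76 of the large subunit 61 fell and 2 rose (median -0.27), RPL22B and RPL28. RPL3, a gene of the large subunit, lay at 23.8 and 21.9 in upf1 cells and at 29.2 and 30.9 in wild type (-0.39 ± 0.08). Its groups did not overlap, but scaled to snoRNAs 0 ribosomal protein genes of either subunit fell, with medians of -0.22 and -0.18. Without each library in turn 28 to 45 of the small and 26 to 53 of the large subunit fell, the fewest without the second wild-type library, and without the second upf1 library 35 and 34 fell.

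Of 38 translation factor genes 25 fell and 1 rose, and of 10 core histone genes 9 fell and 0 rose. Of 67 mitochondrial ribosomal protein genes 14 fell (20.9%, close to the 18.45% of all mRNAs) and 0 rose. HTB1, a histone H2B gene, lay at 2.21 and 1.81 in upf1 cells and at 3.19 and 3.30 in wild type (-0.70 ± 0.10). Scaled to snoRNAs 0 translation factor genes, 1 mitochondrial ribosomal protein gene and 2 histone genes fell. The translation factors had 30 falls without the first and 10 without the second upf1 library, and the mitochondrial list 40 and 1. Without the first wild-type library they had 17 and 8 falls and without the second 11 and 2.

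The decay machinery itself had no riser, while 20.7% of all mRNAs rose and 18.45% fell. Of 18 decapping and 5′-3′ decay genes 5 fell, of 11 deadenylation genes 3 and of 21 exosome and Ski genes 7, with 0 rises in each. XRN1 lay at 1.02 and 0.738 in upf1 cells and at 1.14 and 1.19 in wild type (-0.42 ± 0.14), and MTR4, the exosome helicase gene, at 0.358 and 0.291 in upf1 cells and at 0.536 and 0.534 in wild type (-0.72 ± 0.10). Scaled to snoRNAs 0, 0 and 1 of the genes in these lists fell. With 1 library left out the falls were 0 to 6, 0 to 6 and 3 to 11, and XRN1 kept its call only without the first upf1 library. The other large falls were in CLD1, a cardiolipin lipase gene (-1.04 ± 0.17), CWP1, a cell wall protein gene (-0.99 ± 0.11), and HO, the mating type switching nuclease gene (-0.91 ± 0.13).

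Rising and falling mRNAs differed in the sequence before their start codon and in their position. An ATG lay within 50 nt before the start codon in 38.8% of the 487 mRNAs that rose at least 2-fold, in 33.5% of the 719 that rose by less, in 17.2% of the 3538 that did not pass and in 8.2% of the 1073 that fell, against 19.4% of all 5817. Within 100 nt the shares were 71.7%, 66.2%, 49.2% and 38.7%, against 51.3%. Within 200 nt, where most genes hold an ATG, they were 95.5%, 93.2%, 82.1% and 76.7%, against 83.6%, a smaller excess. The motif searched was ATG on the coding strand in any frame, in genomic sequence before the annotated start, so part of these letters may lie outside the RNA. Turned the other way, 430 of the 1128 mRNAs with an ATG within 50 nt rose and 88 fell (median 0.21), and 776 of the 4689 without one rose and 985 fell (median -0.12). These shares are descriptions, with no test.

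Since low-level mRNAs rose more often, the same was read within tertiles of the mean level. With an ATG within 50 nt 40.1%, 40.9% and 26.7% rose in the lowest, middle and highest tertile, and without one 25.04%, 17.2% and 9.10%. An A stood 3 nt before the start codon, as in the favoured start context, in 52.6% of the mRNAs that rose at least 2-fold and in 67.6% of those that fell, against 60.4% of all. In the lowest tertile the share that rose was nearly the same with this A (28.7%) and without it (29.6%). It was lower with this A in the middle tertile (20.35% against 24.97%) and in the highest (9.83% against 13.09%). The median coding length was 945 nt in mRNAs that rose at least 2-fold and 1392 nt in those that fell, against 1191 nt in all.

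Within 20 kb of a chromosome end 118 of 195 mRNAs rose and 4 fell, with a median of 0.95, against 1088 rises and 1069 falls among the 5622 farther away (median -0.10). By tertiles of level 61.3%, 74.3% and 34.8% of the mRNAs near an end rose, against 26.7%, 21.3% and 10.5% of the others. The highest tertile near the ends held 23 genes. In starved cells the median change was 0.40 near the ends and -0.22 farther away.

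**Figure D4:**
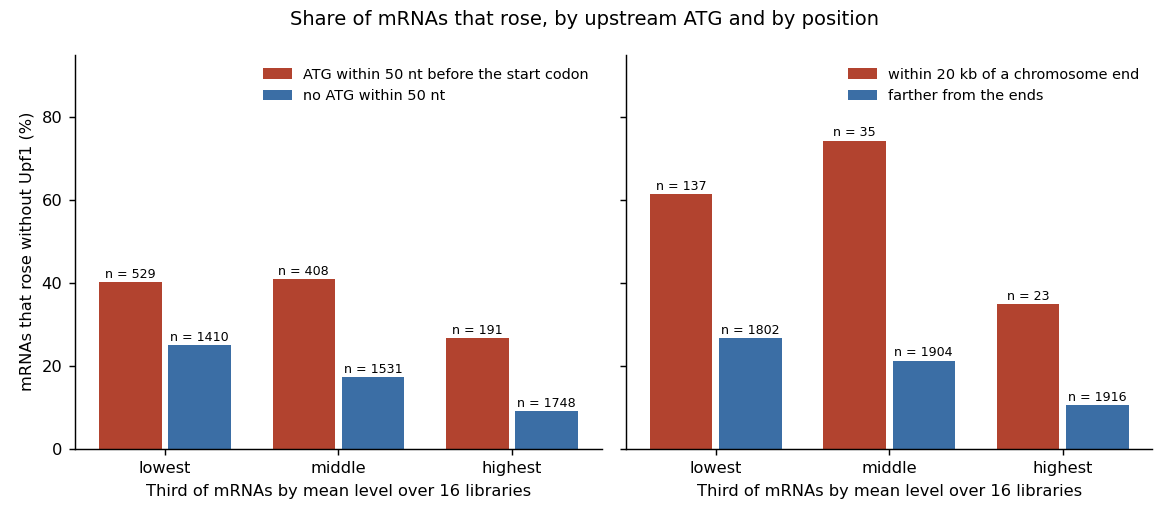
Percentage of mRNAs that rose without Upf1 in glucose (y axis, from 0), by tertile of mean level over all 16 libraries (x axis), for mRNAs with (red) and without (blue) an ATG within 50 nt before the start codon (left) and for mRNAs within 20 kb of a chromosome end (red) or farther away (blue, right). In the middle tertile 40.9% of those with and 17.2% of those without such an ATG rose.

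The noncoding RNAs that rose most were nearly all XUTs. XUT1361 lay at 0.600 and 0.157 reads per nucleotide in upf1 cells and at 0.0102 and 0.0106 in wild type (4.47 ± 0.65, adjusted p = 1.14e-04). XUT1187 lay at 0.522 and 0.176 in upf1 cells and at 0.0309 and 0.0126 in wild type (3.70 ± 0.58), and XUT1188 at 0.475 and 0.177 in upf1 cells and at 0.0269 and 0.0302 in wild type (3.19 ± 0.47). In these 3 the first upf1 library was the higher by far, though both stood above wild type.

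XUT0376, at 0.245 and 0.222 in upf1 cells and at 0.0216 and 0.0262 in wild type, rose by 3.11 ± 0.17 (adjusted p = 4.58e-08) with closely matched replicates. XUT1467, at 0.199 and 0.212 in upf1 cells and at 0.0210 and 0.0203 in wild type, rose by 3.11 ± 0.18. XUT0788 and XUT1185 rose by 3.11 ± 0.30 and 3.10 ± 0.31. NUT0676 held a ratio of 0.608 to 0.643 to ZPS1 in every library used, so that its rise of 4.05 ± 1.12 is not a separate measurement.

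Falls among lncRNAs were few, 15 in CUTs, 13 in NUTs, 3 in XUTs and 1 in SUTs, and 7 of those in CUTs and 2 of those in XUTs reached 2-fold. Those named were CUT073 at 0.0327 and 0.0307 in upf1 cells and at 0.0907 and 0.0566 in wild type (-1.09 ± 0.33), XUT0649 (-1.27 ± 0.48), SUT605 (-0.96 ± 0.32) and NUT0227, which counts the reads of HSP12 (ratio 0.993). Each of the first 3 calls was lost without at least 1 library. The lncRNAs carry no coordinates in the deposited table, so their neighbours and sequences were not analysed here.

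The same deletion was read again in starved cells, in 4 libraries whose values do not enter the glucose changes. The spread of each feature was estimated over all 16 libraries, so the calls in the 2 media share it and are not independent. There 2217 features rose (19.1%) and 1842 fell (15.9%). Of the 3717 features that rose in glucose, 2040 also rose in starved cells (54.9% of the glucose risers and 92.0% of the starved ones), 23 fell, and 92.0% had a positive change. For mRNAs 576 rose in both, 47.8% of the glucose risers and 96.3% of the starved ones, and for XUTs 621, which is 61.4% and 93.2%. Of the 1156 features that fell in glucose 889 fell in starved cells (76.9%). Across the 5817 mRNAs the changes in the 2 media had Pearson's r = 0.84, a description over genes that share libraries within each medium.

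**Figure D5:**
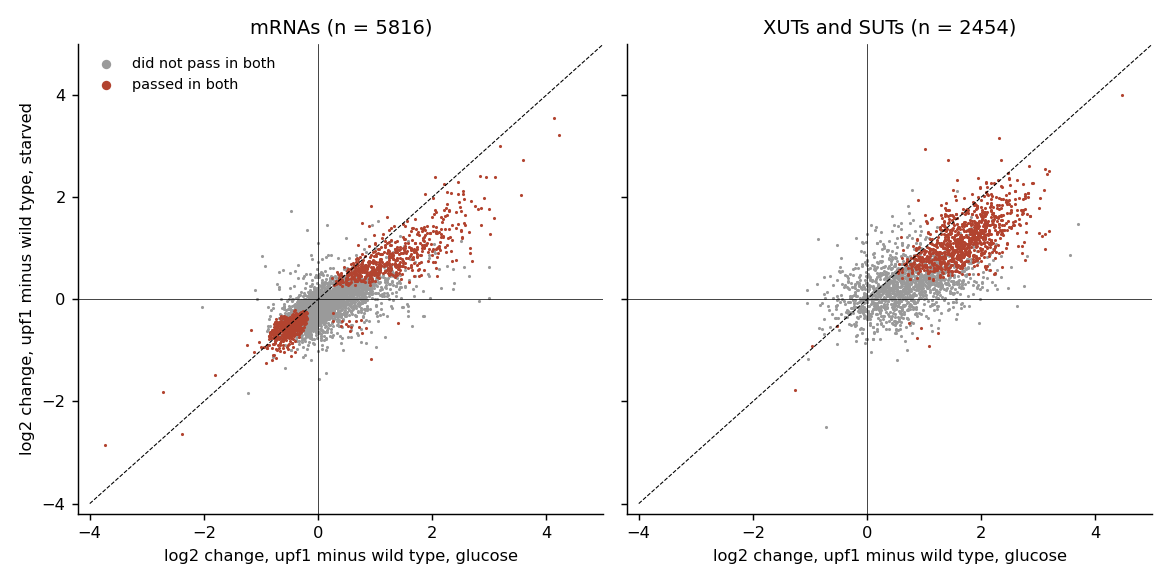
Log2 change in upf1 cells against wild type in starved cells (y axis) and in glucose (x axis) for mRNAs other than NAM7 (left) and for XUTs and SUTs (right), with features that passed in both in red and the line of equal change dashed. Most risers lie below that line, with medians for the mRNAs that rose in glucose of 0.38 starved and 0.86 in glucose.

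Rises were smaller on the median in starved cells, where changes in general also lay lower. The median difference, starved minus glucose, was -0.20 over all features tested and -0.15 over all mRNAs, against 0.48 over snoRNAs. The part of this shift in the smaller rises was not tested. The mRNAs that rose in glucose had a median of 0.38 in starved cells and 0.86 in glucose, and the XUTs 0.84 and 1.48, in part because they were chosen by the glucose values. The test of the difference itself, starved minus glucose, called 569 features (4.90%), 558 of them lower (4.81%). These were 133 of 1624 XUTs, 106 of 830 SUTs, 239 of 5817 mRNAs, 54 of 1434 NUTs and 8 of 904 CUTs. A further 11 features were higher (0.0948%), a count that became 294 with the protein-coding genes as the scale.

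Of the named genes the maltose permease genes had the largest differences. MAL11 and MAL31 changed by 0.02 and -0.04 in starved cells, neither of which passed, and rose by 2.996 and 2.82 in glucose. The differences were -2.98 and -2.85 (limma adjusted p = 6.90e-05 for both). Their wild-type means were higher in starved cells (0.233 and 0.301) than in glucose (0.0255 and 0.0429). Their upf1 means were 0.235 and 0.290 in starved cells and 0.230 and 0.327 in glucose. YOL153C had 0.21 in starved cells, which did not pass, and a rise of 2.80 in glucose. COS12, by contrast, changed by 3.01 in starved cells and 3.18 in glucose, and EST2 by 1.54 and 1.56, and for these the difference did not pass. Among the falls PHO84 changed by -2.85 in starved cells and -3.74 in glucose (difference 0.89, adjusted p = 0.0270), and PHO89 by -2.63 and -2.38.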

How the data were processed

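The analysis used the authors' deposited signal table of normalised densities (reads per nucleotide, 1 column per library). Build R64 is named in the submitters' processing notes, with DESeq2, featureCounts 2.0.0, HISAT2 2.2.0 and Trim Galore as tools. How they were combined, and how libraries were scaled, is not given in the sources used here. Rescaling to the spike-ins gave a factor of 1.005 in each library. Another 8 columns, the authors' group means, were not used. Recovered reads were whole within 0.02 for 76.4 to 84.0% of low ORFs in the 4 libraries, so no count test was run.

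Log2(value + 0.00364), the pseudocount being the 5th percentile of positive values, was fitted with limma 3.58.1 in R 4.3.3 (trended eBayes, 1 mean per group over 16 libraries, 8 residual degrees of freedom), after leaving out features whose mean was under the pseudocount. Recovery was checked on simulated data.

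Named features were those passing with groups that do not overlap (45.7% of features higher, 22.5% lower) and a mean of at least 0.05 in the higher group: the 15 mRNAs with the largest rise, the 10 with the largest fall, 8 and 4 lncRNAs, all members of the Upf and NMD target lists, and up to 3 per other list. NAM7, auxotrophic loci, dubious and transposon ORFs were left out. Further genes in the text were picked from the lists with their values known. The members and lists were chosen with earlier results of these data known, and 3 lists (ribosome assembly, AAD, maltose) after values were seen. Alternatives were other pseudocounts, filters, scalings and fits, a 2-fold minimum, the replicate block and leaving out each library. Sequences came from the RefSeq R64 genome and annotation.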

Additional observations from a re-analysis of the deposited data

Results flagged for a closer look

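For 28 named genes the effect of losing Upf1 differed between starved and glucose-grown cells by the interaction term (limma adjusted p under 0.05, against 4.90% of all features). Many were named for a large change in glucose, a value that enters this difference. The difference is given on the log2 scale as starved minus glucose. Among maltose genes it was -2.98 for MAL11, -2.85 for MAL31 and -0.957 for IMA1. Among broken frames it was -2.59 for YOL153C, -1.22 for CCW22, -1.2 for YIL168W, -1.14 for SDC25 and -1.17 for NIT1. Among known targets it was -1.37 for REC107 and -0.649 for CPA1. In families at chromosome ends it was -1.75 for PAU5, -1.33 for PAU23, -0.73 for COS10, -0.904 for COS7 and -0.687 for AAD4. Uptake and nitrogen genes had -1.39 (DAL2), -1.04 (DAL5), -1.07 (FRE3), -0.954 (FRE2) and -0.868 (THI72), and the pyrimidine gene URA10 had -0.899. The uncharacterised YGL258W-A, YCR095W-A and YEL073C had -2.37, -1.07 and -0.907, and the lncRNAs XUT0376 and XUT1467 -2.12 and -1.83. PHO84 (0.889) and HXT2 (0.619), which fell in glucose, differed the other way.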

How the results depend on the processing

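Over 16 alternatives for the named features, 2172 of the values kept direction and side of the threshold, 197 lost the call, 5 gained it and 5 turned sign. In glucose the 3717 rises kept within 1.5 times except when tested against a 2-fold minimum (916, a stricter criterion than a fitted change of 2-fold). The 1156 falls numbered 2798 scaled to protein-coding genes, 137 scaled to snoRNAs, 537 in a fit of the compared groups alone, 5 with the 2-fold minimum and 460 to 2011 with 1 library left out. In starved cells the 2217 rises became 3498, 922 and, with the 2-fold minimum, 118 in that order, and the 1842 falls 3740 scaled to snoRNAs, 4 with the minimum and 699 to 1216 with 1 library left out. Of the differences between media the 11 higher became 3 with a pseudocount 10 times larger, 294 and 17 under the scalings, 1 in the fit alone, 20 with the replicate block, 0 with the minimum and 3 to 59 with 1 library left out. The 558 lower became 345, 1707 (snoRNAs), 123, 936, 4 and 183 to 1026. Replicate deviations had a correlation of 0.0029 between the glucose groups and of 0.0816 between upf1 cells in glucose and starved. These values do not settle whether the replicate numbers pair the samples. In ZPS1 the first upf1 library was the higher in starved cells too, at 2.07 against 0.202. With the replicate block 3913 features rose and 1558 fell in glucose. The mRNA median of -0.08 turned to 0.00222 scaled to snoRNAs, and was -0.201 to 0.0547 with 1 library left out. With pseudocounts 10 times larger or smaller the medians were 0.392 and 1.40 for XUTs, 0.484 and 1.33 for SUTs and 0.150 and 0.788 for NUTs, and with the larger one 0.0622 for CUTs. Signs also turned, among others, for the medians of snoRNAs (-0.207 to 0.0343 with 1 library left out), described uORFs (-0.0151, and -0.0363 and -0.0996 with a first library left out) and arginine genes (-0.0411) scaled to protein-coding genes, frameshift mRNAs (0.0129), pyrimidine genes (0.0270) and hexose transporters (0.0257) scaled to snoRNAs, and, with 1 library left out, for UPF3 (-0.576 to 0.116), for UBP7 (-0.474 to 0.124), and HXT12 (-0.0925 to 0.182), while YIL171W reached 0 (-0.893 to 0). Without the second upf1 library the medians of the TCA cycle (0.00624), ergosterol (0.0254) and mating type alpha (-0.078) lists turned too, as did arginine genes (-0.0709) without the first. The cause of these changes was not tested.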
